A study of Mus musculus with 6 samples.

Results

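Sox4, Sox9, Sox10, Sox11, Id1, Id2, Id3 and Id4 encode transcriptional regulators of progenitor and lineage state, and their mRNA was compared here between Runx1-null and Runx1-WT luminal mammary epithelial cells (MECs). Every probe set that the array annotation gives to exactly 1 of these 8 symbols was taken, 28 probe sets among the 45101 of the array and 8 genes among the 18194 named ones. The cells were YFP+ luminal MECs, gated as Lin−CD24+CD29lo, from adult virgin females of a mixed B6/129/FVB background. The group of 3 mice called Runx1-null was MMTV-Cre;Runx1L/L;R26Y, with both Runx1 alleles floxed, while the group of 3 mice called Runx1-WT was MMTV-Cre;Runx1+/+;R26Y. Both groups therefore carried MMTV-Cre, a Cre transgene driven by the mouse mammary tumor virus promoter, and R26Y, a reporter that makes Yellow Fluorescent Protein once Cre has acted on it. YFP marks recombination at the reporter and not at the Runx1 alleles, so a sorted cell may still have held an intact Runx1 allele. Each mouse gave 1 array, and mice were numbered within a group only to name them.

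SOX proteins bind DNA through an HMG box and bend it, and they are known as regulators of stem and progenitor states. Sox4 and Sox11 belong to the SoxC group, and Sox9 and Sox10 to the SoxE group, both of whose members have been tied to mammary stem and progenitor cells. ID proteins have a helix-loop-helix domain but no basic DNA-binding region, so they pair with E proteins and keep these from binding E-boxes. Id genes are classical targets of BMP-SMAD signaling.

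Id4 and Id2 are shown by the sequence just before their transcription start, because these windows, alone among the member windows at hand, held the palindrome GGCGCC, letters known from BMP-SMAD response elements of Id genes. RefSeq windows (build GRCm38.p6, 250 bases before the start) were at hand for 5 of the 8 genes, Sox4, Sox11, Id2, Id3 and Id4. The Id4 window is chr13:48260866-48261115 on the plus strand and the Id2 window is chr12:25096093-25096342 on the minus strand. Both are written 5′ to 3′ along the gene's strand, with GGCGCC in capitals.
Id4: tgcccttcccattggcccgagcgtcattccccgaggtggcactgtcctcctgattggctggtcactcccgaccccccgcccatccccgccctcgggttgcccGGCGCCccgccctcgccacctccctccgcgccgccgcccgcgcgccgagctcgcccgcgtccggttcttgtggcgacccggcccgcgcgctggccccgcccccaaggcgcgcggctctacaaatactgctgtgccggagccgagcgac
Id2: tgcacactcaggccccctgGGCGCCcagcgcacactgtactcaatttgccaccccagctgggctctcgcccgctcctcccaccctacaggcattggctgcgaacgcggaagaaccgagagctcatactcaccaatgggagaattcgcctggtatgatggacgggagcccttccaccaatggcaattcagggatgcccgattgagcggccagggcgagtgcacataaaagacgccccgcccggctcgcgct
The first base of GGCGCC lay at position -148 from the start in Id4 and at -231 in Id2, and 9.59% of 32851 windows of the same length held these letters. The letters TGTGGT or TGCGGT, forms of the core that RUNX proteins bind, were searched on both strands and were in 0 of the 5 member windows, against 18.6% of all windows. The E-box CANNTG, which reads the same on both strands, occurred 2 times in the Sox11 window, 1 time each in Sox4 and Id2, and 0 times in Id3 and Id4, and 66.2% of all windows held at least 1. Bases G and C made up 75.6% of the Id4 window and 62.8% of the Id2 window, against a median of 52.4% over all windows. These matches describe the letters of the windows, and binding was not measured.

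The sorted cells carried luminal markers at similar levels in all mice. Krt8, a luminal keratin, had an intensity (the linear brightness of a probe set after the authors' normalization) between 10459 and 12535. Runx1 itself, the targeted gene, was measured by 6 probe sets, and the groups overlapped on each. On 1422864_at its intensity was 4082, 3855 and 2015 in the Runx1-WT mice against 3473, 4820 and 2277 in the Runx1-null mice. The position of these probes relative to the floxed exon is not known here, and their readings are no check of the genotypes. Log2 values of the 6 arrays correlated at 0.947 to 0.985 with each other. Gapdh signal at the 3' end exceeded that at the 5' end, a measure of RNA integrity, by 0.46 to 0.47 on the log2 scale in the Runx1-WT mice against 0.47 to 0.61 in the Runx1-null mice.

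None of the 8 genes passed the test between the genotypes. Limma on log2 intensity, with values under a floor of 19.3 raised to it, called 0 of 12152 tested genes at an adjusted p under 0.05 (0%), and the adjusted p of each of the 8 genes was 0.9997. At an unadjusted p under 0.05 limma gave 234 genes (1.93%) and 0 of the 8. The methods' t-test gave 335 genes at an unadjusted p under 0.05 and 0 after Benjamini-Hochberg adjustment. Of the 8 genes, 4 had a difference above 0 and 4 below, with a median log2 difference (Runx1-null minus Runx1-WT, as throughout) of -0.005, beside -0.02 over all tested genes. Values of the 2 groups were apart for 1 of the 8 genes, Id4, and for 675 genes (5.55%) of all tested. Among probe sets with enough signal to be tested (a mean intensity of at least 73.5), the groups did not overlap on 1 of the 19 member probe sets and on 1311 of 27061 probe sets (4.84%) of the array. The log2 range over the 6 arrays had a median of 1.53 over the 8 genes and 0.71 over all tested genes, and of the 8, Sox4 and Sox9 had smaller ranges than most tested genes.

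**Figure D1:**
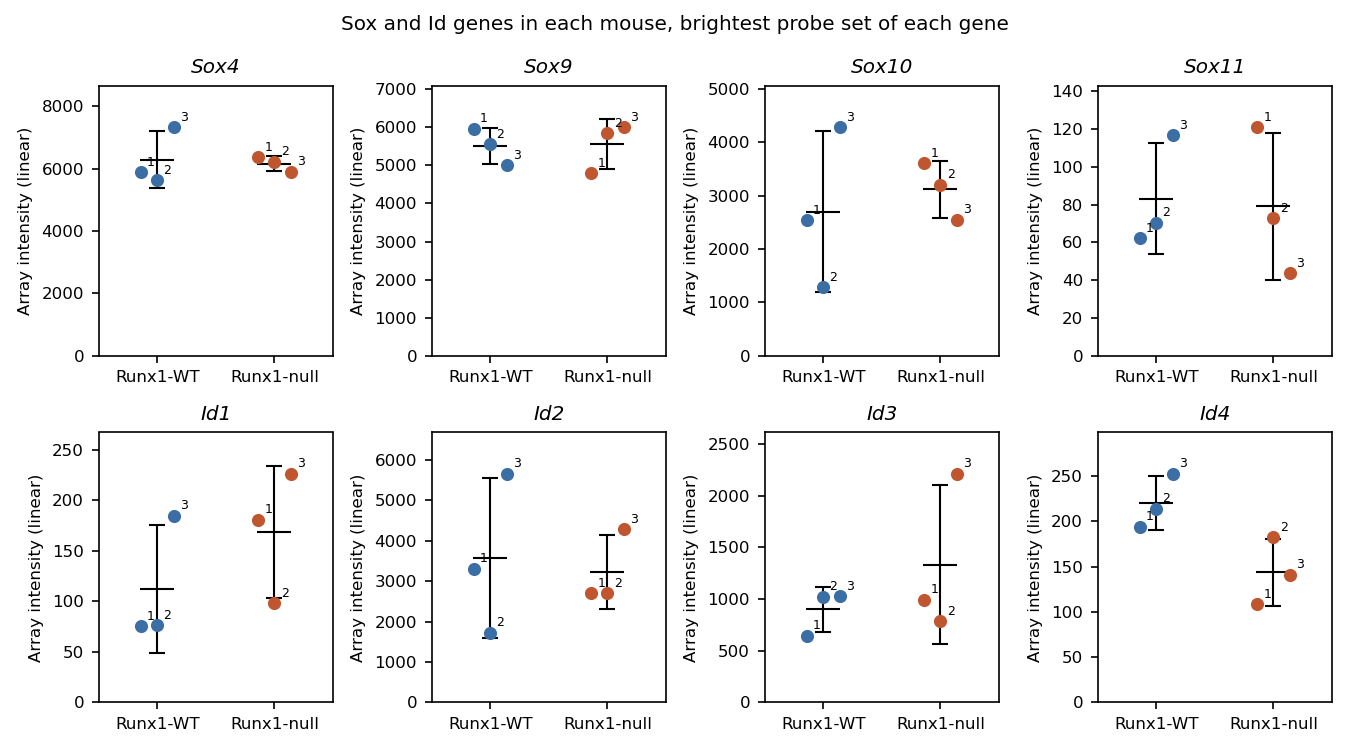
Array intensity (linear, y axis from 0) of the brightest probe set of each gene in each mouse, with mouse numbers beside the points, and lines for the mean and bars for the SD of 3 mice. Id4 was lower in all 3 Runx1-null mice (109 to 182) than in any Runx1-WT mouse (194 to 253), and the groups overlapped for the other 7 genes.

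Sox4, a SoxC factor known for roles in epithelial-mesenchymal transition, hardly differed between the genotypes. Its brightest probe set, 1433575_at, read 5883, 5640 and 7325 in Runx1-WT mice 1, 2 and 3 against 6361, 6221 and 5898 in Runx1-null mice 1, 2 and 3. The 3 Runx1-null mice lay inside the range of the Runx1-WT mice. The mean was 6283 ± 910 (SD, n = 3) for Runx1-WT against 6160 ± 237 (SD, n = 3) for Runx1-null cells, giving a log2 difference of -0.02 (standard error 0.11, 95% interval -0.28 to 0.24, limma). Of the 8 genes, Sox4 and Sox9 had the narrowest intervals.
Sox4 had 8 probe sets, of which 6 passed the intensity filter and the other 2 were under the floor on all 6 arrays. Over the 6 probe sets the log2 difference ran from -0.22 to 0.19, with 3 above 0 and 3 below. Runx1-WT mouse 3 was the highest mouse on all 6 and Runx1-WT mouse 2 the lowest on 4. The other 5 tested probe sets varied more between mice than 1433575_at, and the largest log2 range was 1.44 against 0.38. That range was on 1449370_at, which read 2426, 1891 and 4173 in the Runx1-WT mice against 2636, 2996 and 1537 in the Runx1-null mice. Here the lowest mouse was Runx1-null mouse 3, and the groups overlapped as they did on all 6 probe sets.

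Sox9, a SoxE factor of mammary stem and luminal progenitor cells, was as steady. On 1451538_at it read 5960, 5565 and 5012 in the Runx1-WT mice against 4802, 5848 and 6000 in the Runx1-null mice. Each group held both high and low mice, and the highest mouse was only 1.25-fold above the lowest. The means were 5512 ± 476 (SD, n = 3) against 5550 ± 652 (SD, n = 3), with a log2 difference of 0.01 (standard error 0.11, 95% interval -0.26 to 0.27, limma). The second tested probe set, 1424950_at, gave a log2 difference of -0.07 and ran over a log2 range of 0.43, and the last one was under the floor on all arrays. Only 13.1% of tested genes had a smaller range over the arrays than Sox9, and 18.3% a smaller range than Sox4.

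Sox10, the SoxE factor of neural crest and glia that is also expressed in mammary progenitor and basal cells, varied widely between the Runx1-WT mice. Its probe set 1451689_a_at read 2533, 1282 and 4278 in the Runx1-WT mice against 3605, 3204 and 2549 in the Runx1-null mice. Runx1-WT mouse 2 was the lowest of all 6 mice and Runx1-WT mouse 3 the highest, with the Runx1-null mice between them. The mean was 2698 ± 1505 (SD, n = 3) for Runx1-WT against 3119 ± 533 (SD, n = 3) for Runx1-null cells, giving a log2 difference of 0.36 (standard error 0.41, 95% interval -0.61 to 1.34, limma). The SD of log2 values was 0.87 among Runx1-WT and 0.25 among Runx1-null mice, and whether the genotypes differ in spread was not tested. The interval holds both a fall and a rise of more than 1.28-fold, the size of the fitted difference, so the direction of Sox10 was not settled. Without Runx1-WT mouse 2 the log2 difference was -0.09, and without Runx1-WT mouse 3 it was 0.78.
All 3 probe sets of Sox10 gave differences above 0, from 0.36 to 0.41, but all 3 were lowest in Runx1-WT mouse 2 and highest in Runx1-WT mouse 3. On 1424985_a_at the readings were 868, 449 and 2087 in the Runx1-WT mice against 1406, 1359 and 982 in the Runx1-null mice, and on 1425369_a_at they were 451, 218 and 1178 against 737, 634 and 587. The highest Runx1-WT mouse was 4.65-fold above the lowest on the first and 5.40-fold on the second, while the Runx1-null mice stayed close together. The log2 values of the 3 probe sets correlated with each other at 0.98 to 0.99 over the 6 arrays, which they share, so they are readings of the same 6 RNA samples and not further evidence. The animal numbers in the labels fall into a lower range with 2 mice of each genotype and an upper range with 1 of each. Sox10 had a log2 difference of 0.92 in the lower and -0.75 in the upper range.
Marker levels also differed between the mice. Elf5, a luminal progenitor factor, read 2691, 1119 and 3640 in the Runx1-WT mice against 2785, 3126 and 3409 in the Runx1-null mice, and was also lowest in Runx1-WT mouse 2. The mean log2 level of 5 luminal progenitor markers (Kit, Cd14, Elf5, Aldh1a3 and Itga2) lay 0.50 below the mean of the 6 mice in that mouse and between -0.01 and 0.22 in the others. The mean of 8 basal and myoepithelial markers lay 0.57 below in Runx1-WT mouse 2 and 0.48 above in Runx1-WT mouse 3, and it was lowest in Runx1-null mouse 3, at -0.72, where Sox10 was at -0.10. The mean of 3 mature luminal markers (Esr1, Pgr and Foxa1) ran the other way, at 0.33 in Runx1-WT mouse 2 and -0.45 in Runx1-WT mouse 3. Between the genotypes, all 5 luminal progenitor markers had log2 differences above 0, with a median of 0.18 beside -0.02 over all tested genes. The groups were apart for 1 of the 5, Aldh1a3, and for 5.55% of all tested genes. Of the 3 mature luminal markers 1 was above 0 and 2 below, with a median of -0.15. Limma called 0 markers of either list. The summed intensity of all 10 basal markers was 8152 to 16630 in the Runx1-WT mice against 7188 to 16396 in the Runx1-null mice. Of the Schwann cell and glial markers, S100b and Foxd3 did not reach the intensity filter. Cdh19 read 107, 150 and 98.7 in the Runx1-WT mice against 91.4, 86.7 and 271 in the Runx1-null mice, and Mbp, which made up most of that list's sum, ran from 3884 to 5508. Neither was lowest in Runx1-WT mouse 2 or highest in Runx1-WT mouse 3, as Sox10 was. The summed intensity of 5 leukocyte markers was 2019 in Runx1-WT mouse 3 against 437 to 824 in the other mice. Ptprc, Cd52, Laptm5 and Cd3e were each highest in that mouse, and Csf1r was lowest there. Sox4 and Id2 were also highest in Runx1-WT mouse 3. The part of cell composition in the Sox10, Sox4 and Id2 values was not tested. In such bulk RNA, fewer cells of a type and less RNA per cell cannot be told apart.

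**Figure D2:**
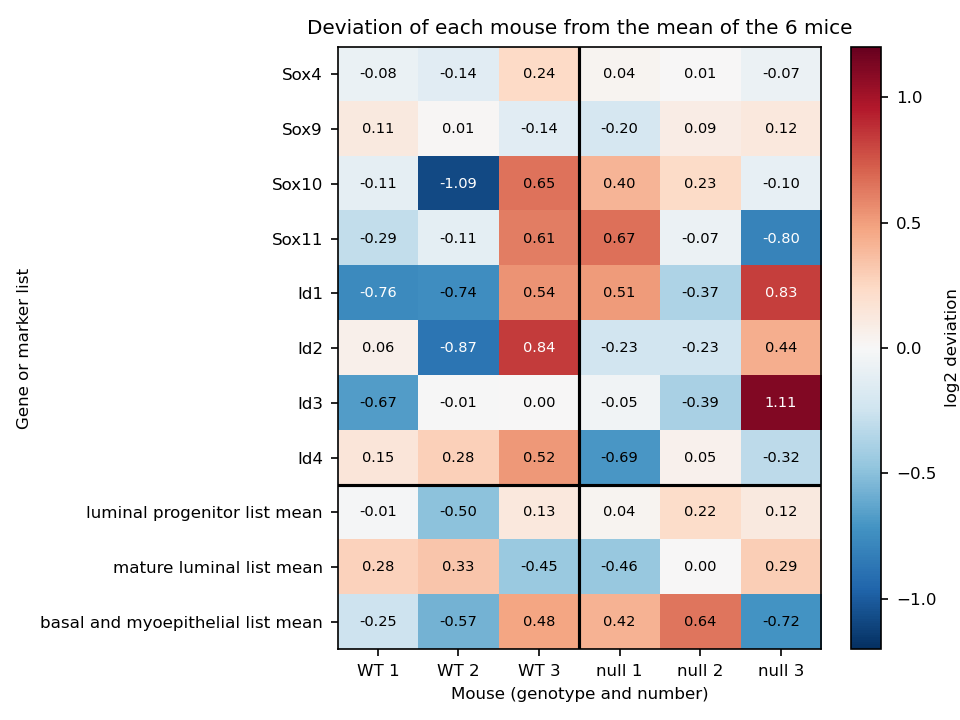
Log2 deviation of each mouse from the mean of the 6 mice (colour and printed value) for the 8 genes and for the mean of the luminal progenitor, mature luminal and basal marker lists, with Runx1-WT mice left and Runx1-null mice right of the vertical line. Sox10 and Id2 were lowest in Runx1-WT mouse 2 (-1.09 and -0.87), where the luminal progenitor mean was also lowest (-0.50), and Id3 was highest in Runx1-null mouse 3 (1.11).

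Sox11, the SoxC partner of Sox4 and mainly a factor of embryonic tissue, had probe sets with mean intensities near or under the filter. On 1431225_at, the single probe set of 6 that passed the filter, it read 62.2, 70.5 and 117 in the Runx1-WT mice against 121, 72.7 and 43.8 in the Runx1-null mice. The highest and the lowest mouse were both Runx1-null. The log2 difference was -0.14 (standard error 0.47, 95% interval -1.26 to 0.98, limma). The table gives no detection calls, so whether these readings exceed background is not known. On 1429372_at, a Sox11 probe set that did not reach the filter, the intensities were 40.8, 37.0 and 45.7 in the Runx1-WT mice against 119, 59.3 and 25.1 in the Runx1-null mice. Runx1-null mouse 1 was highest and Runx1-null mouse 3 lowest on both probe sets. The other 4 Sox11 probe sets read between 10.4 and 66.0, and the groups overlapped on each.

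**Figure D3:**
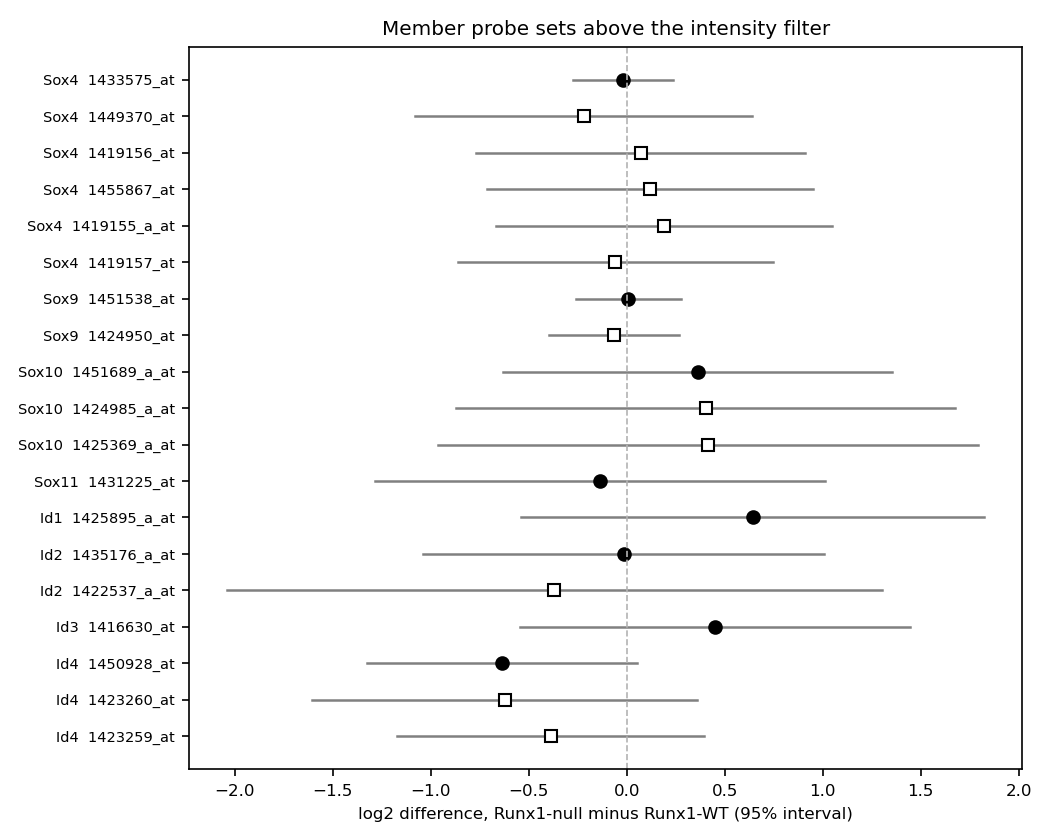
Log2 difference (Runx1-null minus Runx1-WT, x axis) with its 95% interval for the 19 member probe sets above the intensity filter, from the fit over 27061 probe sets, with filled circles for the brightest probe set of a gene and open squares for the others. All 19 intervals include 0, those of 1433575_at (Sox4) and 1451538_at (Sox9) are the narrowest, and the 3 probe sets of Id4 all lie below 0.

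Id1, an ID protein known from endothelium and from BMP responses, was higher on average in Runx1-null cells but with overlapping groups. It read 75.1, 76.1 and 185 in the Runx1-WT mice against 181, 98.3 and 226 in the Runx1-null mice on 1425895_a_at. Runx1-WT mouse 3 lay among the Runx1-null mice, and the other Runx1-WT mice lay below all 3 of them. The means were 112 ± 63.0 (SD, n = 3) against 168 ± 64.8 (SD, n = 3), with a log2 difference of 0.64 (standard error 0.49, 95% interval -0.51 to 1.79, limma unadjusted p = 0.228). An exact permutation test of the single gene, two-sided, gave p = 0.3, where 0.1 is the smallest p that 3 mice against 3 can reach. The difference stayed above 0 when any single mouse was left out, from 0.39 to 1.07.

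Id3, the close relative of Id1, stood out in 1 mouse. On 1416630_at it read 645, 1023 and 1027 in the Runx1-WT mice against 995, 786 and 2212 in the Runx1-null mice. Runx1-null mouse 3 was above every other mouse, and the other Runx1-null mice lay inside the range of the Runx1-WT mice. The means were 899 ± 219 (SD, n = 3) against 1331 ± 770 (SD, n = 3). The log2 difference of 0.45 (standard error 0.41, 95% interval -0.52 to 1.42, limma) became 0.01 without Runx1-null mouse 3. Id1 was highest in the same mouse. That array had the largest excess of 3' over 5' signal (0.61 for Gapdh and 0.74 for beta-actin, against 0.46 to 0.55 and 0.44 to 0.52 in the others) and the largest share of values under the floor (22.3%, against 18.8% to 20.6%). The summed intensity of 6 stromal markers, 0 of which had a difference above 0, was also lowest there, at 4581 against 10675 to 13641 in the other mice. The part of these array and tissue measures in the Id1 and Id3 values was not tested.

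Id2, an ID protein required for alveolar development of the mammary gland, followed Sox10 in its extremes. On 1435176_a_at it read 3310, 1728 and 5658 in the Runx1-WT mice against 2700, 2698 and 4293 in the Runx1-null mice. Runx1-WT mouse 2 was lowest and Runx1-WT mouse 3 highest, so that the Runx1-null mice again lay within the Runx1-WT range. The mean was 3565 ± 1977 (SD, n = 3) against 3230 ± 920 (SD, n = 3), and the log2 difference was -0.02 (standard error 0.42, 95% interval -1.02 to 0.99, limma). This interval was far wider than that of Sox4, whose difference was of the same size. A second probe set, 1422537_a_at, read 1260, 378 and 3000 in the Runx1-WT mice against 709, 872 and 1073 in the Runx1-null mice, with a log2 difference of -0.37 and the same lowest and highest mouse. The last Id2 probe set, 1453596_at, did not reach the filter and read 25.8 to 49.6. Over the 6 arrays, which are shared, the log2 values of Id2 and Sox10 correlated at 0.72.

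Id4, an ID protein known as a regulator of basal mammary stem cells, was the single member whose groups did not overlap. On 1450928_at it read 194, 214 and 253 in the Runx1-WT mice against 109, 182 and 141 in the Runx1-null mice. All 3 Runx1-null mice were lower than all 3 Runx1-WT mice, with 182 and 194 as the nearest values. The mean was 220 ± 29.7 (SD, n = 3) for Runx1-WT against 144 ± 37.0 (SD, n = 3) for Runx1-null cells, giving a log2 difference of -0.64 (standard error 0.28, 95% interval -1.30 to 0.03), or 1.55-fold on the log2 scale. By limma the unadjusted p was 0.0583 and the adjusted p = 0.9997, and Id4 was at rank 285 of the 12152 genes by p. The exact permutation test, two-sided, gave p = 0.1, the smallest value this design allows. The difference does not pass the test over all genes.
The other 2 probe sets of Id4 were also below 0 but with overlapping groups. On 1423260_at the intensities were 164, 123 and 232 in the Runx1-WT mice against 113, 162 and 70.4 in the Runx1-null mice, with a difference on the log2 scale of -0.62 (standard error 0.41). On 1423259_at they were 162, 103 and 162 in the Runx1-WT mice against 87.2, 134 and 103 in the Runx1-null mice, with a difference on the log2 scale of -0.39 (standard error 0.33). Runx1-null mouse 2 was the highest Runx1-null mouse on all 3 probe sets. On 1450928_at the difference was -0.53 in the lower and -0.84 in the upper range of animal numbers, while on 1423260_at it was -0.08 and -1.72. Leaving out any single mouse kept it between -0.82 and -0.45 on 1450928_at. No detection calls were given for Id4 either. The brightest probe set of Sry, a gene of the Y chromosome, read 153 to 237 in these female mice. The Sry readings overlapped those of Id1 and those of Id4 on all 3 of its probe sets. All Sox11 readings on 1431225_at, 43.8 to 121, lay below the lowest Sry reading. How much of the Id1 and Id4 readings is background is not known.
Endothelium is a tissue known to express Id genes. Id1 and Id3 had log2 differences above 0 (0.64 and 0.45), and Id2 and Id4 below (-0.02 and -0.64). Of 4 tested endothelial markers (Pecam1, Kdr, Tek and Emcn) 0 were called by limma. An unadjusted p under 0.05 was found for 1 of them, against 1.93% of all tested genes. Of the 4, 0 had a log2 difference above 0, with a median of -0.72. The summed intensity of 5 endothelial markers (these and Cdh5) was 636 to 981 in the Runx1-WT mice against 397 to 601 in the Runx1-null mice. These sums did not overlap, and singly the groups were apart for Kdr and Tek and overlapped for Pecam1, Emcn and Cdh5. Of all tested genes, 5.55% had groups apart. Of 6 stromal markers 0 were called, by limma or at an unadjusted p under 0.05, and all 6 were below 0, with a median of -0.61 and a summed intensity of 11608 to 13641 in the Runx1-WT mice against 4581 to 12127 in the Runx1-null mice. Lin− sorting is meant to remove endothelial and blood cells, and the CD24 and CD29 gate is meant to keep out stromal cells. The sums above show that markers of endothelial and stromal cells still gave signal in the sorted RNA. The basal markers, which mark the cells Id4 is best known from, had a median of 0.21, with 5 of 8 above 0. The part of these cells in the Id4 values was not tested.

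**Figure D4:**
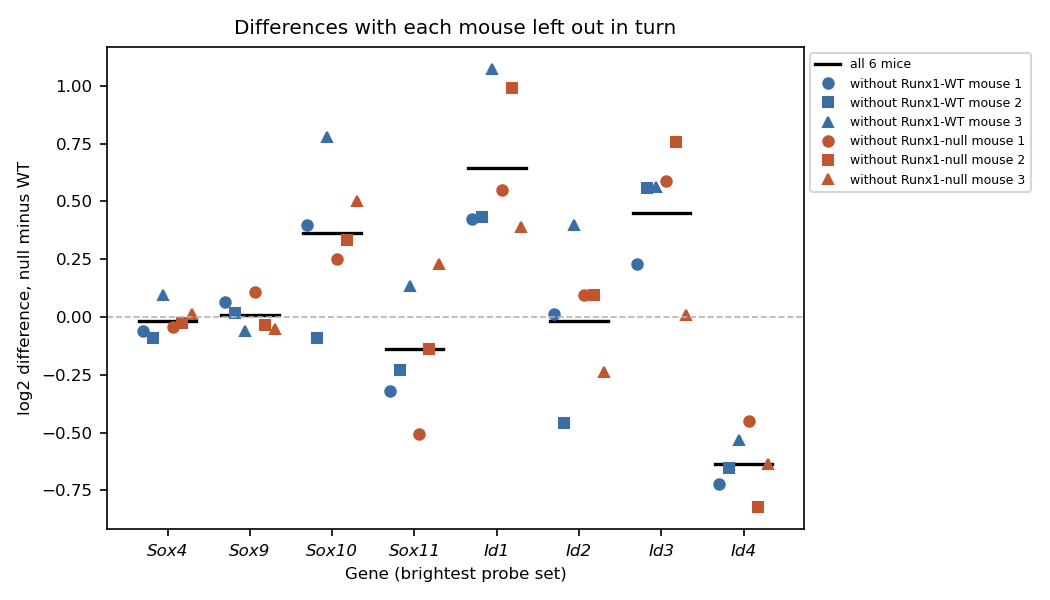
Log2 difference (Runx1-null minus Runx1-WT, y axis) of each gene's brightest probe set with all 6 mice (black bars) and with each mouse left out in turn (symbols). Id4 stays below 0 (-0.82 to -0.45) and Id1 and Id3 above 0, while Sox10 runs from -0.09 to 0.78 and Id2 from -0.46 to 0.40.

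The genes whose log2 values ran most like those of the 3 most variable members were found among the 12152 tested genes, by Pearson's r over the 6 arrays. They were Fam162a (0.997), Cmtr1 (0.984) and Akap1 (0.984) for Id3, Ecscr (0.996), Eif2b4 (0.996) and Nsmce4a (0.995) for Sox10, and Dph7 (0.991), Borcs7 (0.990) and Gdi2 (0.989) for Id2. With 6 arrays and so many genes, the top r is high for any profile. Fam162a, which ran from 2597 to 3535 across the same mice as Id3, covered a much smaller range than Id3 did.

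Of the 16 other Sox family genes looked at, 10 passed the intensity filter, 3 with a log2 difference above 0 and 7 below, and 0 passed limma. Their median was -0.17. The 3 with the smallest unadjusted p were Sox7, a SoxF factor of endothelium, at -0.59 (standard error 0.31), Sox6, a SoxD factor, at 0.36 (standard error 0.28), and Sox15 at -0.73 (standard error 0.60). The groups overlapped for each of these 10 genes, which include Sry.

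The groups overlapped for each of the 3 E protein genes, whose products ID proteins bind. Tcf3 read 404, 340 and 785 in the Runx1-WT mice against 703, 576 and 398 in the Runx1-null mice, with a log2 difference of 0.19 (standard error 0.37). Tcf4 read 3548 to 4219 in the Runx1-WT mice against 3200 to 3955 in the Runx1-null mice, and Tcf12 read 3360 to 4030 against 3502 to 4334, with standard errors of 0.12 and 0.13. Tcf3 thus differed more between mice than the other E protein genes. Of 21 genes for E proteins and other basic helix-loop-helix factors, 11 were tested, 5 above and 6 below 0, with a median of -0.07 and 0 called. Bhlhe41, a repressor of the circadian clock, read 889, 590 and 598 in the Runx1-WT mice against 367, 571 and 521 in the Runx1-null mice. Its groups did not overlap, as for 5.55% of all tested genes, with a log2 difference of -0.51 (standard error 0.26, limma unadjusted p = 0.0969). Bhlha15, a factor of secretory cells, had 0.77 (standard error 0.57) and Msc -0.60 (standard error 0.58), both with overlapping groups.

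Among BMP-SMAD genes, 14 of 21 were tested, and 12 of them were below 0, while 0 were called. Their median log2 difference was -0.12, beside -0.02 over all tested genes. The list mixes activators and inhibitors of the pathway, and the inhibitors Bambi (-0.36) and Smad7 (-0.05) were among those below 0. The count therefore gives no direction for the pathway. Bmpr1a, a type I BMP receptor, read 4367, 4247 and 4276 in the Runx1-WT mice against 3588, 4065 and 3839 in the Runx1-null mice. These groups did not overlap, as for 5.55% of all tested genes, and the log2 difference was -0.17 (standard error 0.09, limma unadjusted p = 0.0988). Smad5, a receptor-activated SMAD of this pathway, was at -0.25 (standard error 0.24) and the ligand Bmp4 at -0.49 (standard error 0.52), with overlapping groups. Of the Id genes, known targets of the pathway, Id1 and Id3 were above 0 and Id2 and Id4 below, and no test compared them with these genes.

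Genes known to work with or downstream of SOX factors were split, with 8 of 15 tested genes above 0, 7 below and a median of 0.02. Foxa1, a pioneer factor of mature luminal cells, read 6493, 6086 and 5127 in the Runx1-WT mice against 4193, 4644 and 5426 in the Runx1-null mice, with a log2 difference of -0.31 (standard error 0.13, limma unadjusted p = 0.0471). Runx1-null mouse 3 was above Runx1-WT mouse 3, so the groups overlapped. Trp63, the p53 relative of basal cells, was at 0.83 (standard error 0.40) and Mitf, a SOX10 target in melanocytes, one of -0.52 (standard error 0.29). None was called, with an adjusted p of 0.9997 for each by limma.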

How the data were processed

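RNA of 6 mice (3 Runx1-WT, 3 Runx1-null) was prepared with RNeasy, amplified with the NuGEN Ovation V2 system and put on Affymetrix 430 2.0 mouse arrays. The deposited table holds linear intensities that the authors normalized with dChip. Its version is not given in the sources used here. Precision is limited by the number of arrays. The methods describe littermates, and litters are not known here.

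Of 45101 probe sets, 34958 had 1 gene symbol, 932 several and 9211 none, and the last 2 classes were not used for genes. They did count in the floor, the filter and the fit over 27061 probe sets. Intensities were raised to the pooled 20th percentile (19.335) and log2 was taken. The brightest probe set stood for its gene. The 12152 genes with a mean of at least the 40th percentile (73.5) were tested with limma 3.58.1 in R 4.3.3 (lmFit, eBayes with trend, Benjamini-Hochberg), which was also run over 27061 probe sets and tested on simulated data. For single genes an exact permutation test, two-sided, was used.

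The members and gene lists were chosen with earlier results of these data known. The named genes are the 8 members, the 3 genes of each related list with the smallest unadjusted p, the first markers of each cell type list and the 3 genes most like each of the 3 most variable members. Tcf3, Tcf4, Tcf12, Sry, Bambi and Smad7, and further markers given beside a member, were named after their values were seen. Alternatives were other filters, quantile normalization, median scaling, a pseudocount of 16, leaving out each mouse, animal numbers (lower or upper range) as a block, the lower numbers alone, eBayes without trend, the methods' t-test and each other probe set.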

Additional observations from a re-analysis of the deposited data

How the results depend on the processing

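Of 128 alternative values for the 8 genes, 106 kept their direction and 22 changed it, and none passed the threshold. Those that kept it include settings that cannot change a difference, only its p. These are the other filters, the block, eBayes without trend and the t-test. Genes called by limma stayed at 0 under every setting run, with 78 to 818 genes at an unadjusted p under 0.05 when single mice were left out (818 without Runx1-WT mouse 3) and 1866 when the 4 mice with lower animal numbers were tested alone. The small differences changed sign. Median scaling, which moved the median of all genes by 0.05 on the log2 scale, gave 0.0308 for Sox4 and 0.0338 for Id2. Those 4 mice alone gave 0.13 for Sox4, -0.12 for Sox9, 0.50 for Sox11 and 0.17 for Id2. Other probe sets gave 0.0711, 0.12 and 0.19 for Sox4 and -0.0656 for Sox9. With each mouse left out in turn, the differences ran from -0.0924 to 0.10 for Sox4, from -0.0603 to 0.11 for Sox9, from -0.0924 to 0.78 for Sox10, from -0.50 to 0.23 for Sox11 and from -0.46 to 0.40 for Id2. The cause was not tested. Id1, Id3 and Id4 kept their direction under every alternative in which they were tested. Sox11, Id1 and Id4 did not reach the filter at the 60th percentile and have no value there. The labels pair no mice by replicate number. With a block for lower or upper animal numbers, limma gave 305 genes at an unadjusted p under 0.05 and 0 called. The 8 differences kept their values, as they must when both ranges hold equal numbers of each genotype. The 3 mice of each group, and for Sox11, Id1 and Id4 the lack of detection calls, limit these values.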
